A study of Homo sapiens with 2 samples.

Results

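The genes described here are 10 interferon-induced effectors: IFIT1, IFIT2, IFIT3 and IFIT5, IFITM1, IFITM2 and IFITM3, BST2, NMI and IFI35. They were chosen by name as a set known to have moved in both directions on these arrays. Every probe set annotated to 1 of them alone was taken, which gave 22 of 49293 probe sets and 10 of 18132 annotated genes. The measurements came from HCT116, an epithelial line from a human colorectal carcinoma. One culture received the lentiviral shRNA named sh-RAP1-4# (shRAP1) and the other a lentiviral negative-control shRNA (shNC). Both were infected at a multiplicity of infection of 20 and taken at 72 h, and each gave 1 array. Both groups therefore carried a lentivirus, and no uninfected culture was part of the comparison. RAP1 was targeted by a single shRNA, and effects of that sequence on other transcripts cannot be told apart from those of RAP1.

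Every difference given below is the log2 value in shRAP1 less that in shNC. Since a group was a single array, none of them has a replicate, an error or a test, and variation between cultures cannot be told apart from the effect of the shRNA. Medians of all non-control probe sets were 78.9 on the shRAP1 array and 77.0 on the shNC array. TERF2IP, the telomere protein also called RAP1, had an intensity of 624 in shRAP1 and 1311 in shNC, on 1 probe set. RAP1A, a small GTPase, had 987 in shRAP1 and 1122 in shNC. RAP1B had 1358 in shRAP1 and 1456 in shNC. Marker intensities were summed over all genes of a list on the array, past the floor defined below or not. Epithelial markers were past that floor for 8 of 9 genes, and the sum over the 9 was 31984 in shRAP1 and 31246 in shNC. Of the leukocyte markers on the array, 3 of 8 were past it, and the sum over the 8 was 536 in shRAP1 and 482 in shNC. Of the fibroblast and endothelial markers 2 of 10 were, and the sum over the 10 was 441 in shRAP1 and 418 in shNC.

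Type I and type III interferons act through JAK kinases and a complex of STAT proteins with IRF9, which binds the interferon-stimulated response element (ISRE) in promoters. Type II interferon acts through STAT dimers that bind the gamma-activated sequence (GAS). The IFIT proteins bind viral RNA in the cytosol, the IFITM proteins and BST2 act in membranes against entry and release of enveloped viruses, and NMI and IFI35 bind each other and modulate immune signalling.

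The promoter sequences are shown because members on both sides of the split carried the same element. RefSeq promoters of build GRCh38.p14, from 250 bases before to 50 bases after an annotated start site, were matched by symbol for 8 of the 10 genes. IFIT2 and IFITM2 had no entry. The ISRE letters searched were GAAANNGAAA, read on both strands, so that the gene strand shows either these letters or TTTCNNTTTC. They were found in 7 of the 8 genes, and 6 of the 8 held at least 2 matches. Of all 35116 promoters of the same length, 3.57% held a match and 0.259% held at least 2. Counted by gene, as for the members, the shares of 27305 genes with a promoter were 4.38% and 0.311%. The stretches below run 5′ to 3′ on the strand of the gene, and capitals mark the ISRE letters. They are chr10:89392487-89392549 on the plus strand for IFIT1, chr10:89414503-89414587 on the plus strand for IFIT5, chr2:151289802-151289851 on the minus strand for NMI, chr11:313980-314059 on the plus strand for IFITM1, chr11:320866-320932 on the minus strand for IFITM3 and chr19:17405725-17405780 on the minus strand for BST2. The first 3 genes were lower in shRAP1 and the last 3 were higher.
IFIT1: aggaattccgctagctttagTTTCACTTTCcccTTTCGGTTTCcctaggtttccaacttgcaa
IFIT5: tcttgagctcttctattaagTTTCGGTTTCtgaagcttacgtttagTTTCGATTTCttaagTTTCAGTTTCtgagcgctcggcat
NMI: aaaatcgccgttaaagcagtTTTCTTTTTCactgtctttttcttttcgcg
IFITM1: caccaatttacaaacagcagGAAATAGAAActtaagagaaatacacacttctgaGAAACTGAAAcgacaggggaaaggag
IFITM3: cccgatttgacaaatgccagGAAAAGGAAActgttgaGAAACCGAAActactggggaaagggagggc
BST2: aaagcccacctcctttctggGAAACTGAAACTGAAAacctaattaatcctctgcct

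In IFIT1, IFIT5 and NMI every match was on the strand opposite to the gene, as it was in both promoters listed for IFIT3, with 2 matches each. In IFITM1, IFITM3 and BST2 every match was on the strand of the gene. Orientation was read for the members alone, which were chosen with their differences known. Within the IFIT family, and within the IFITM family, all matches had the same orientation, so genes of a family are not separate cases. The relation of orientation to the direction of the differences was not tested. The matches of BST2 overlap each other and together read as 3 repeats of GAAA. The single match of NMI lies 163 to 154 bases before the start in a stretch rich in T. Those of IFIT1 lie 116 to 94 bases before it, and those of IFIT5 from 45 bases before to 6 bases after it. The GAS letters, TTCNNNGAA, which read the same on both strands, were found in IFITM1, BST2, NMI and IFI35. They were in 7.66% of all promoters and 9.38% of all genes with a promoter. In BST2 and IFITM1 a GAS match overlapped an ISRE match. IFI35 had a GAS match and no ISRE match in this window. A match describes the letters and not binding, and no match says nothing about the factors.

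**Figure D1:**
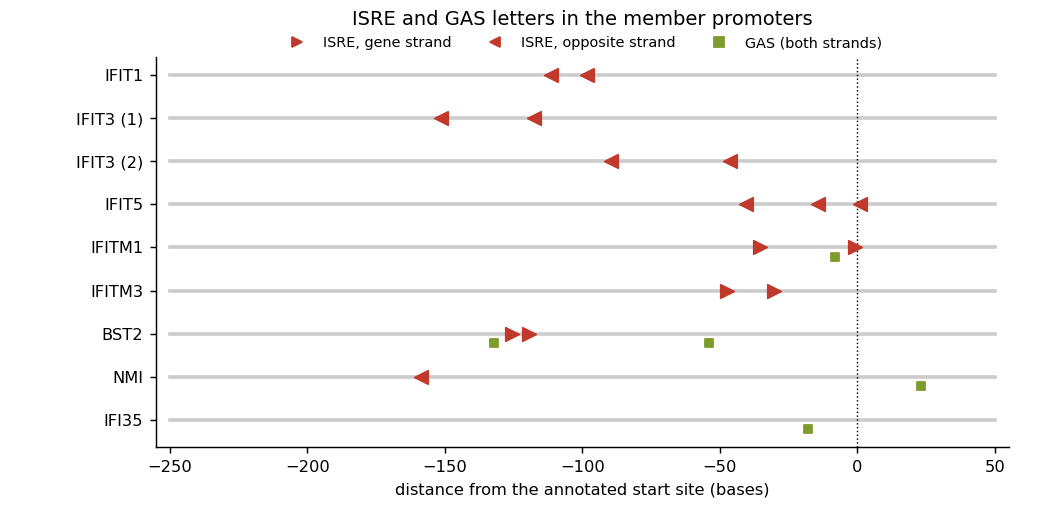
Positions of ISRE letters (triangles, pointing right on the gene strand and left on the opposite strand) and GAS letters (squares) in the 9 promoters listed for 8 genes, against the distance in bases from the annotated start. The triangles point left in IFIT1, IFIT3, IFIT5 and NMI and right in IFITM1, IFITM3 and BST2.

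A probe set was taken as measured where the higher of its 2 intensities reached a floor of 78.0, or 6.29 as log2, which is the median over both arrays. Of the 22 probe sets, 18 reached it, and they covered 9 of the 10 genes. Each gene was represented by its brightest such probe set, as were all 10437 genes measured. Of the 9 genes, 4 were higher in shRAP1 and 5 lower, against 53.2% higher and 46.8% lower among all measured genes. At a size of 1.5-fold, BST2 was higher, against 0.211% of all genes, and IFIT1 and NMI were lower, against 0.172%. IFIT1 was just past that size, at 1.51-fold lower, and NMI was past it on its brightest probe set alone. At a smaller size, a difference of 0.32, BST2 and IFITM1 were higher, against 2.49% of all genes, and IFIT1, IFIT2 and NMI were lower, against 1.92%. IFIT2 was counted with a shRAP1 value below the floor, and against the floor its difference was −0.12, short of that size. The genes were chosen with these differences known, so the counts describe the set and support nothing further. The median of the 9 genes was −0.032 and that of all genes 0.010, and the members' own differences ranged from −0.61 to 0.73. The split followed the families: the measured IFIT genes and both adaptor genes were on the lower side, and the 4 membrane genes on the higher side. IFI35, at −0.032, changed sign between its probe sets. In RNA from a whole culture, fewer cells that express a gene and less RNA per cell cannot be told apart.

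**Figure D2:**
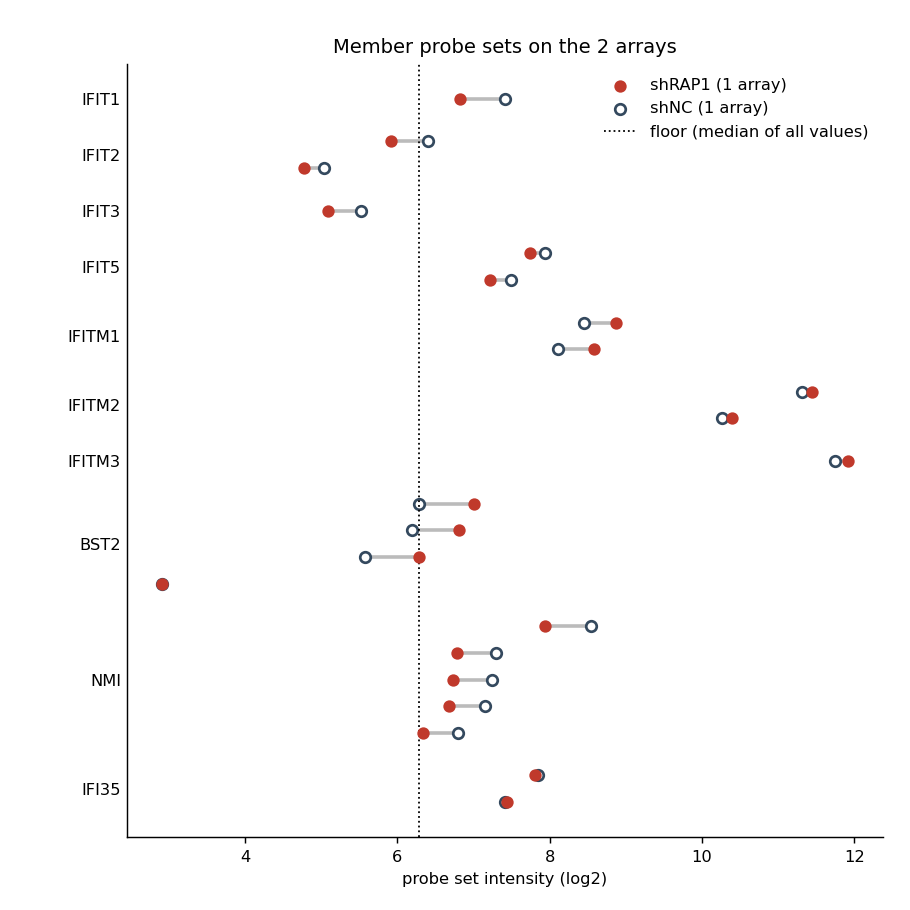
Intensity on the log2 scale of all 22 probe sets on the shRAP1 array (filled) and the shNC array (open), 1 row a probe set, with the floor dotted. The filled points lie left of the open ones in every IFIT and NMI row and right of them in every IFITM row.

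The IFIT proteins are cytosolic RNA-binding proteins built from tetratricopeptide repeats. IFIT1, which blocks translation of RNA whose cap lacks a methyl mark of host RNA, had an intensity of 113 in shRAP1 and 170.3 in shNC on its only probe set. It stood at 66.3% of shNC, a difference of −0.59, and 16 of the 10437 genes had a lower one. The difference was 3.48 times the SD seen among IFIT1 itself and the 500 genes ranked nearest to it in brightness. This SD measures how genes vary here and not experimental error. IFIT2, which binds AU-rich RNA, had 60.3 in shRAP1 and 85.0 in shNC on its brighter probe set. Its difference was −0.50, or 2.19 times the SD, taken for so dim a gene over the dimmest genes measured. The shRAP1 value lay below the floor. Taken against the floor, IFIT2 was at least 1.09-fold lower in shRAP1. The other IFIT2 probe set was below the floor on both arrays, with 27.4 in shRAP1 and 32.8 in shNC, a difference of −0.26.

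IFIT3, a partner that stabilises IFIT1 on RNA, was the member that did not reach the floor. Its only probe set, of a type whose probes can match other transcripts, had 34.2 in shRAP1 and 45.8 in shNC, a difference of −0.42 between dim values. IFIT5, which binds RNA with a triphosphate end, was the IFIT gene with the smallest difference. Its brighter probe set had 215 in shRAP1 and 245 in shNC, a difference of −0.19, and the other had 148 in shRAP1 and 179.8 in shNC, a difference of −0.28. The first was 1.20 times the SD of near genes, and 854 genes had a lower difference. All 6 IFIT probe sets, 4 past the floor and 2 below it, had the lower value in shRAP1.

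The IFITM proteins are small membrane proteins that hinder fusion of enveloped viruses with the cell. IFITM1, which resides mainly at the plasma membrane, had 469 in shRAP1 and 351 in shNC on its brighter probe set, a difference of 0.42. The other IFITM1 probe set had 382 in shRAP1 and 276 in shNC, a difference of 0.47. IFITM1 stood at 134% of shNC, 2.79 times the SD of near genes, and 91 genes had a higher difference. IFITM2, which acts mainly in endosomes, had 2798 in shRAP1 and 2535 in shNC, a difference of 0.14, and 1344 in shRAP1 and 1227 in shNC on the other probe set, a difference of 0.13. IFITM3, the endosomal member best known for restricting influenza virus, had 3881 in shRAP1 and 3448 in shNC on 1 probe set, a difference of 0.17. The IFITM2 and IFITM3 differences were 1.26 and 1.56 times the SD of near genes, and 1937 and 1441 genes had higher ones. All 3 genes had the higher value in shRAP1 on each probe set. The coding sequences of the family are close to each other, and the names of all IFITM2 and IFITM3 probe sets and of the brighter IFITM1 probe set end in _x_at, the mark of probes that can match other transcripts. On those probe sets, signal from the other family members cannot be told apart from the gene's own. The other IFITM1 probe set, at 0.47, does not carry that mark.

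BST2, also called tetherin, spans the plasma membrane and holds budding virions on the cell surface. Its brightest probe set had 129 in shRAP1 and 78.1 in shNC, and the next had 112 in shRAP1 and 73.2 in shNC. These differences of 0.73 and 0.61 started from shNC values at or under the floor of 78.0. Another probe set lay just below the floor, with 77.7 in shRAP1 and 47.8 in shNC, a difference of 0.70. The last was far below the floor, at 7.50 on both arrays. The brightest probe set was 1.65-fold higher in shRAP1, 3.99 times the SD of near genes, and 9 of the 10437 genes had a higher difference.

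NMI, named for its binding to N-myc and STAT proteins, was the member measured by the most probe sets, 5, all past the floor on both arrays. The brightest had 244 in shRAP1 and 374 in shNC, a difference of −0.61. Its name ends in _s_at, a type treated below as less specific. The other 4 had 109.7, 106, 103 and 81.1 in shRAP1 against 157, 152, 142 and 111 in shNC in the same order, with differences between −0.52 and −0.45. NMI stood at 65.3% of shNC on the brightest probe set, 4.12 times the SD of near genes, and 11 genes had a lower difference. Of the 831 genes with at least 5 probe sets past the floor, 326 had the same sign on all of them, and NMI was the only 1 with all at −0.45 or lower, a size taken from NMI itself. IFI35, the binding partner of NMI, had 224 in shRAP1 and 229 in shNC on its brighter probe set, and 173 in shRAP1 and 170.5 in shNC on the other. Its differences of −0.032 and 0.022 had opposite signs and were 0.20 times the SD of near genes in size for the brighter one. NMI was thus lower on every probe set, and IFI35 had nearly the same values on both arrays.

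**Figure D3:**
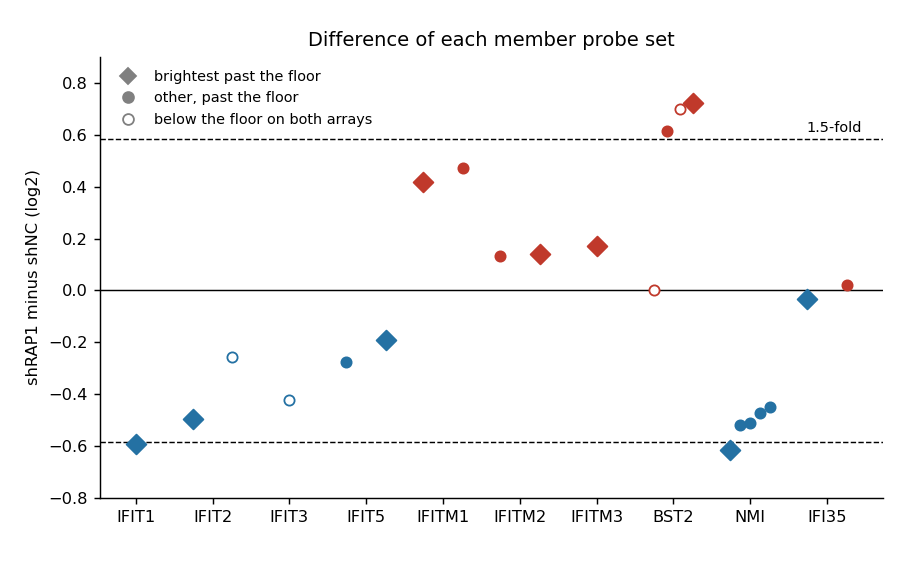
Difference shRAP1 minus shNC (log2) of each member probe set, with diamonds for the brightest probe set past the floor, filled circles for others past it, and open circles for those below it on both arrays. Dashed lines mark 1.5-fold. The 5 NMI points lie between −0.61 and −0.45 and the 3 brighter BST2 points between 0.61 and 0.73.

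**Figure D4:**
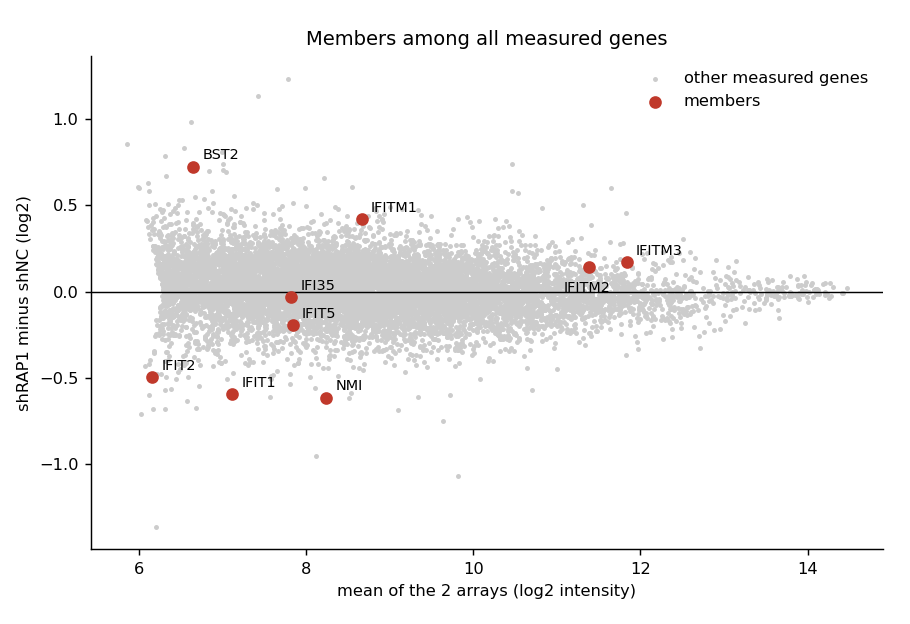
Difference shRAP1 minus shNC (log2) against the mean of the 2 arrays (log2 intensity) for 10437 genes, with the 9 measured members in red. BST2 lies near the upper edge of the cloud and IFIT1 and NMI near the lower edge, while IFI35 and IFIT5 lie inside it.

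Both gene families are tandem blocks, the IFIT genes on chromosome 10 and the IFITM genes on chromosome 11, so their members also share a neighbourhood. Before the IFIT block, the nearest measured genes were FAS, a death receptor, at −0.25 and LIPA, the lysosomal acid lipase, at 0.049. After it came PANK1, of coenzyme A synthesis, at −0.033 and KIF20B, a mitotic kinesin, at −0.23. The measured IFIT genes, from −0.59 to −0.19, thus lay between LIPA and PANK1, which differed little, although FAS and KIF20B were lower than IFIT5. Before the IFITM block came SIRT3, a mitochondrial deacetylase, at 0.080 and PGGHG, a glycosidase, at 0.12. After it came B4GALNT4, a glycosyltransferase, at −0.053 and PKP3, a desmosomal protein, at 0.027. IFITM1 at 0.42 stood above all 4 of these neighbours, while IFITM2 at 0.14 was close to PGGHG. The other relatives, IFIT1B, IFITM5 and IFITM10, were below the floor on both arrays. NMI on chromosome 2, IFI35 on chromosome 17 and BST2 on chromosome 19 belong to neither block.

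**Figure D5:**
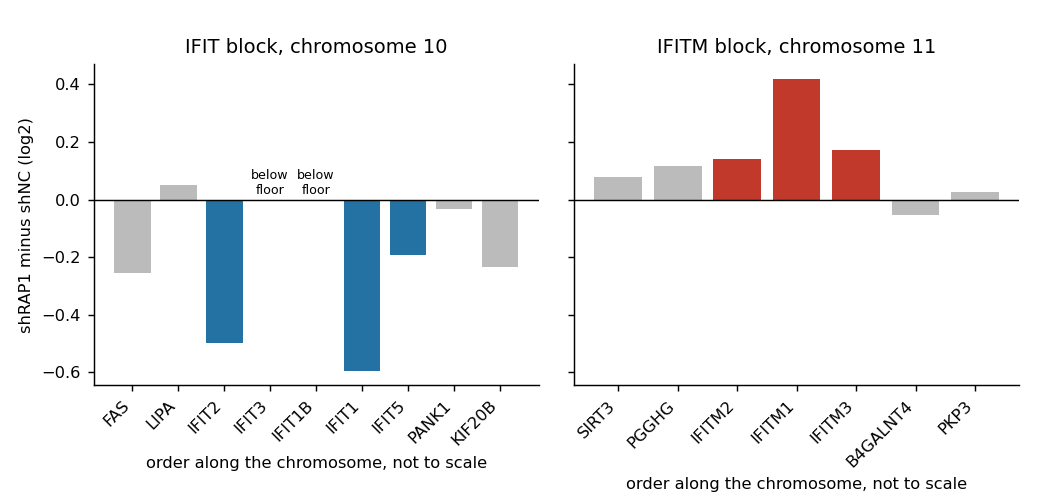
Difference shRAP1 minus shNC (log2) of the genes in and around the IFIT block (left) and the IFITM block (right), in chromosome order and not to scale, with members coloured and neighbours grey. All measured IFIT bars point down and all IFITM bars up, and IFIT3 and IFIT1B were below the floor.

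Other interferon-induced genes were compared as a list of 53, chosen with earlier results of these data known. Of these, 35 were measured. In shRAP1, 24 of them (68.6%) stood lower and 11 (31.4%) higher, against 46.8% lower and 53.2% higher among all measured genes. Their median was −0.059 against 0.010 for all genes. On their brightest probe sets, none of the 35 reached 1.5-fold, a size that 0.211% of all genes reached upward and 0.172% downward. SAMD9, an antiviral factor, had 102 in shRAP1 and 137 in shNC, a difference of −0.43. IFIH1, a sensor of long double-stranded RNA, had 140.0 in shRAP1 and 186 in shNC, a difference of −0.41. OAS2, which makes oligoadenylates that activate RNase L, had 78.1 in shRAP1 and 62.0 in shNC, a difference of 0.33. Its shNC value lay below the floor and its shRAP1 value at it, which leaves its size unknown. TRIM5, which recognises retroviral capsids, had 144 in shRAP1 and 176 in shNC, a difference of −0.29. At a size of 0.32, OAS2 was the 1 gene of this list that was higher, against 2.49% of all genes. OAS2 was counted with a shNC value below the floor, and against the floor it fell short of that size. SAMD9 and IFIH1 were the 2 lower, against 1.92%. Shares and counts over a list so chosen depend on which genes were put in it. They describe the list and support nothing further.

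The ISRE letters were present in a promoter of 28 of the 44 genes of this list that had an entry. Of the 20 measured genes with the letters, 17 stood below 0 and 3 above, and the median was −0.11. Of the 10 measured genes with an entry and without the letters, 6 stood below 0 and 4 above, and the median was −0.041. The difference between these groups was not tested, and both come from the list chosen with earlier results known. Over all measured genes, 161 of the 307 with the letters stood above 0 and 145 below, and the median was 0.0085, members included. Of the 8353 genes with an entry and without them, 4361 stood above 0 and 3990 below, and the median was 0.0071. Among the 33 genes with at least 2 matches, 16 were higher and 17 lower. Only BST2 and IFIT1 were past 1.5-fold, against 0.211% of all measured genes higher and 0.172% lower. The 33 include these members and IFIT5, IFITM1 and IFITM3, all chosen with their differences known, so this count supports nothing further.

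The signalling genes upstream of the members, from receptors to IRF factors and inhibitors, were a list of 25, also chosen with earlier results known. Of these, 18 were measured. In shRAP1, 10 of them (55.6%) stood higher and 8 lower around a median of 0.023, against 53.2% higher among all measured genes. Of the 18, 0 differed by 0.32 or more, against 2.49% of all genes higher and 1.92% lower. STAT3, a transcription factor of cytokine signalling, had 782 in shRAP1 and 653 in shNC, with 3 probe sets between 0.25 and 0.34. IRF9, the DNA-binding subunit of the complex that recognises the ISRE, had 452 in shRAP1 and 527 in shNC, with 4 probe sets between −0.54 and −0.072. PTPN2, a phosphatase of JAK and STAT proteins, had 827 in shRAP1 and 727 in shNC, and its 3 probe sets disagreed, from −0.70 to 0.18. IFNLR1, a receptor chain for type III interferon, had 378 in shRAP1 and 338 in shNC, a difference of 0.16. The interferon genes of the list, IFNB1, IFNL1 and IFNE, were below the floor on both arrays, with intensities of at most 20.3 in shRAP1 and 26.9 in shNC. Of the 8 epithelial markers measured, 5 stood higher and 3 lower around a median of 0.049, led in size by CEACAM6 at −0.21, KRT20 at −0.15, CDH1 at 0.12 and KRT18 at 0.087. The leukocyte markers CD68 and TYROBP were at 0.14 and 0.020, and the endothelial markers KDR and VWF at 0.15 and −0.044. The leukocyte marker HLA-DRA, which interferon also induces, had 258 in shRAP1 and 210.0 in shNC. The part of these markers in the members' differences was not tested.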

How the data were processed

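Per the submitters' processing notes, the authors made the deposited values with RMA, a method of background correction, quantile normalisation and summary over the probes of each set. The values were deposited as probe set intensity on the linear scale, as read from their range. The sources used here give no RMA version, genome build or list of the arrays normalised together. Per the labels, RNA was amplified from the poly(A) tail and labelled with biotin. Quantile normalisation makes every difference relative to the other genes.

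Here log2 was taken with no pseudocount, although log2 values had been assumed in the plan. Of 49293 non-control probe sets, 44988 had 1 gene symbol, 1832 several and 2473 none, and only the first were used. All 22 member probe sets kept their symbol in RefSeq (GRCh38.p14). No test was run, since 1 array per group leaves no spread between replicates, and precision is limited by that number. Genes were counted at 1.5-fold. The text names all members, the target candidates, up to 4 measured genes of largest difference of each list, and the nearest 2 measured genes on each side of both blocks. The members and lists were chosen with earlier results of these data known. Of the listed genes, 5 are not analysed here. Promoter letters were searched in RefSeq sequences. On simulated data, the log2 step returned the planted differences. That outcome followed from how they were planted, and neither the floor nor the choice of probe set was checked. Python 3.11.15, numpy 2.4.6, pandas 2.3.3, statsmodels 0.14.6 and matplotlib 3.10.9 were used. Alternatives changed the probe set standing for a gene, the floor, the probe sets admitted, the centring, the offset, the size counted and the motif.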

Additional observations from a re-analysis of the deposited data

How the results depend on the processing

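No paired analysis was possible because each group holds 1 array. Each difference was recomputed under 8 other settings. Each member with a value kept its sign, except IFI35, which was 0.022 when _x_at and _s_at probe sets were left out. For every other member all probe sets had the same sign. Changing the probe set, the floor or the offset therefore could not reverse those members, and only the centring could. Their kept signs thus add little. The count of members at least 1.5-fold higher (1) was 0 with the floor at the 75th percentile or with 50 added before log2, and 2 at the smaller size of 0.32. For members at least 1.5-fold lower, the count (2) was 1 when a gene was the median of its probe sets, floor or no floor, 1 with the 75th percentile floor, 1 without the less specific probe sets and 0 with 50 added. BST2 was at 0.48 with 50 added. With the higher floor 4 members were measured, and 1 was lower in place of 5. IFIT3 was at −0.42 where no floor was set. The median of the members ran from −0.19 to 0.16, so its sign is not a property of the set. Allowing 1 changed letter put the ISRE in 33.0% of all promoters, 37.7% of all genes with a promoter and 8 of 8 member genes. The TERF2IP difference had no value when _s_at probe sets were left out and otherwise lay between −1.07 and −1.01. The medians of other interferon-induced genes lay between −0.088 and −0.046, and those of the signalling genes between −0.046 and 0.037. Without detection calls in the files, dim values are limited by background.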
